A study of Mus musculus with 24 samples.

Results

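The promoters of Prdm1, Bnc1 and Tcfl5, genes of transcription factors known from other tissues, are described here by their H3K27me3 peaks in cultured mouse cerebellar granule neurons (CGNs). H3K27me3 is the trimethylation of lysine 27 of histone H3. These 3 genes were taken from 21938 protein-coding genes by name, and they had been selected on their coverage at a common list length in the GSK-126 experiment, higher with GSK-126 than with DMSO in earlier results of these data. A promoter was the window of 3 kb on each side of the gene's outermost annotated 5' end, and coverage is the percentage of this 6 kb window that lies under peaks.

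The mark was mapped by CUT&RUN, in which an antibody brings a nuclease to marked chromatin and the released DNA is sequenced. There were 24 libraries in 8 groups of 3 replicates. The cells were granule neuron progenitors of CD-1 IGS mouse pups, taken at postnatal days 6 to 8 and purified on Percoll, and each replicate came from the pooled cerebella of litters. Of these, 12 made up a time course over days in vitro (DIV), sampled on DIV1, DIV3, DIV5 and DIV7. Cytosine arabinoside (AraC, 1 µM), which stops dividing cells, was given on DIV2, so the DIV1 cells had not seen it and the others had. In 2 further experiments of 6 libraries each, cells received 5 µM GSK-126 or its DMSO vehicle, and 1 µM GSK-J4 or its own DMSO vehicle. Treatment began on DIV1 with either drug and ended with the harvest on DIV5. GSK-126 inhibits EZH2, an enzyme that writes H3K27me3, and GSK-J4 inhibits the KDM6 enzymes that remove it. These were bulk cultures, in which a smaller share of marked cells and less mark per cell cannot be told apart.

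H3K27me3 is laid down by Polycomb repressive complex 2 and typically covers promoters of developmental regulators in cells that do not use them. Prdm1, also called Blimp1, is a zinc finger repressor that drives plasma cell differentiation and the specification of primordial germ cells. Bnc1, basonuclin 1, is a zinc finger protein of keratinocytes and germ cells. Tcfl5 is a basic helix-loop-helix factor known from developing sperm cells. The peak lists measure the mark on the genes and say nothing of the activity of the proteins, so the 3 are called transcription factor genes here.

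All 3 genes lie on the minus strand, and their peaks recurred inside the gene, downstream of the 5' end. The stretches below are shown because they are the places where most libraries had a peak. They were read from the RefSeq copy of GRCm38 (mm10) and run 5' to 3' along each gene, with CG dinucleotides, the sites of DNA methylation in mammals, in capitals.
Prdm1, chr10:44527276-44527466, minus strand, first intron, 1035 to 1225 bp downstream of the 5' end, under a peak in 24 of 24 libraries: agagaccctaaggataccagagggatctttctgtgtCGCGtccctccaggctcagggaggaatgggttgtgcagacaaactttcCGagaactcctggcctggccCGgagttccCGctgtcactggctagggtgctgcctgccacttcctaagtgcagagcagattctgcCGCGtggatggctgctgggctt
Bnc1, chr7:81991644-81991821, minus strand, first intron, 471 to 648 bp downstream, each base under a peak in at least 13 libraries: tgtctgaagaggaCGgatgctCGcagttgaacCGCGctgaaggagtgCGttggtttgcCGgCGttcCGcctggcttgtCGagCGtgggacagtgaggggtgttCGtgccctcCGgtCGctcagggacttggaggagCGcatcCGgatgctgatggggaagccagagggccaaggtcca
Tcfl5, chr2:180641306-180641473, minus strand, first intron, 1235 to 1402 bp downstream, each base under a peak in at least 19 libraries: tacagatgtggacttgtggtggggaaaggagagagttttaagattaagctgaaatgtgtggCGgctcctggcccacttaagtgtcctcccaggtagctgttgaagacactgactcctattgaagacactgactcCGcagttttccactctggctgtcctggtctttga

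The 3 stretches differed in base composition. The Bnc1 stretch held 15 CG dinucleotides in 178 bp, an observed over expected ratio of 0.895, at 63.5% GC. The Prdm1 stretch held 7 in 191 bp (ratio 0.420, 59.2% GC) and the Tcfl5 stretch 2 in 168 bp (ratio 0.199, 49.4% GC). Over the whole 6 kb windows the genes were more alike, with CG ratios of 0.490 for Prdm1, 0.537 for Bnc1 and 0.499 for Tcfl5. These ratios stood at percentiles 85.6, 91.0 and 87.0 of all promoters. They were at percentiles 85.5, 92.0 and 87.8 of the 2074 promoters that had a peak in at least 12 libraries. The windows thus ranked high in this ratio among marked promoters too, and the number of CG dinucleotides was not ranked. The Prdm1 window was at the same time low in GC, 44.5%, which was percentile 8.73 of these marked promoters.

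Peaks were present at the members far more often than at most promoters. The 24 libraries include those of the GSK-126 experiment, on which the members had been selected for coverage. A high count was therefore partly fixed by the selection. Prdm1 and Tcfl5 had a peak in 24 of 24 libraries, which was true of 285 promoters or 1.30% of all. Bnc1 had one in 19 libraries, and 5.24% of promoters had a peak in at least as many. It lacked a peak in DIV1 replicate 1, DIV3 replicate 1, DIV7 replicates 1 and 2, and DMSO replicate 2 of the GSK-J4 experiment. A gene without a peak was below the caller's threshold there and was not shown to lack the mark.

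**Figure D1:**
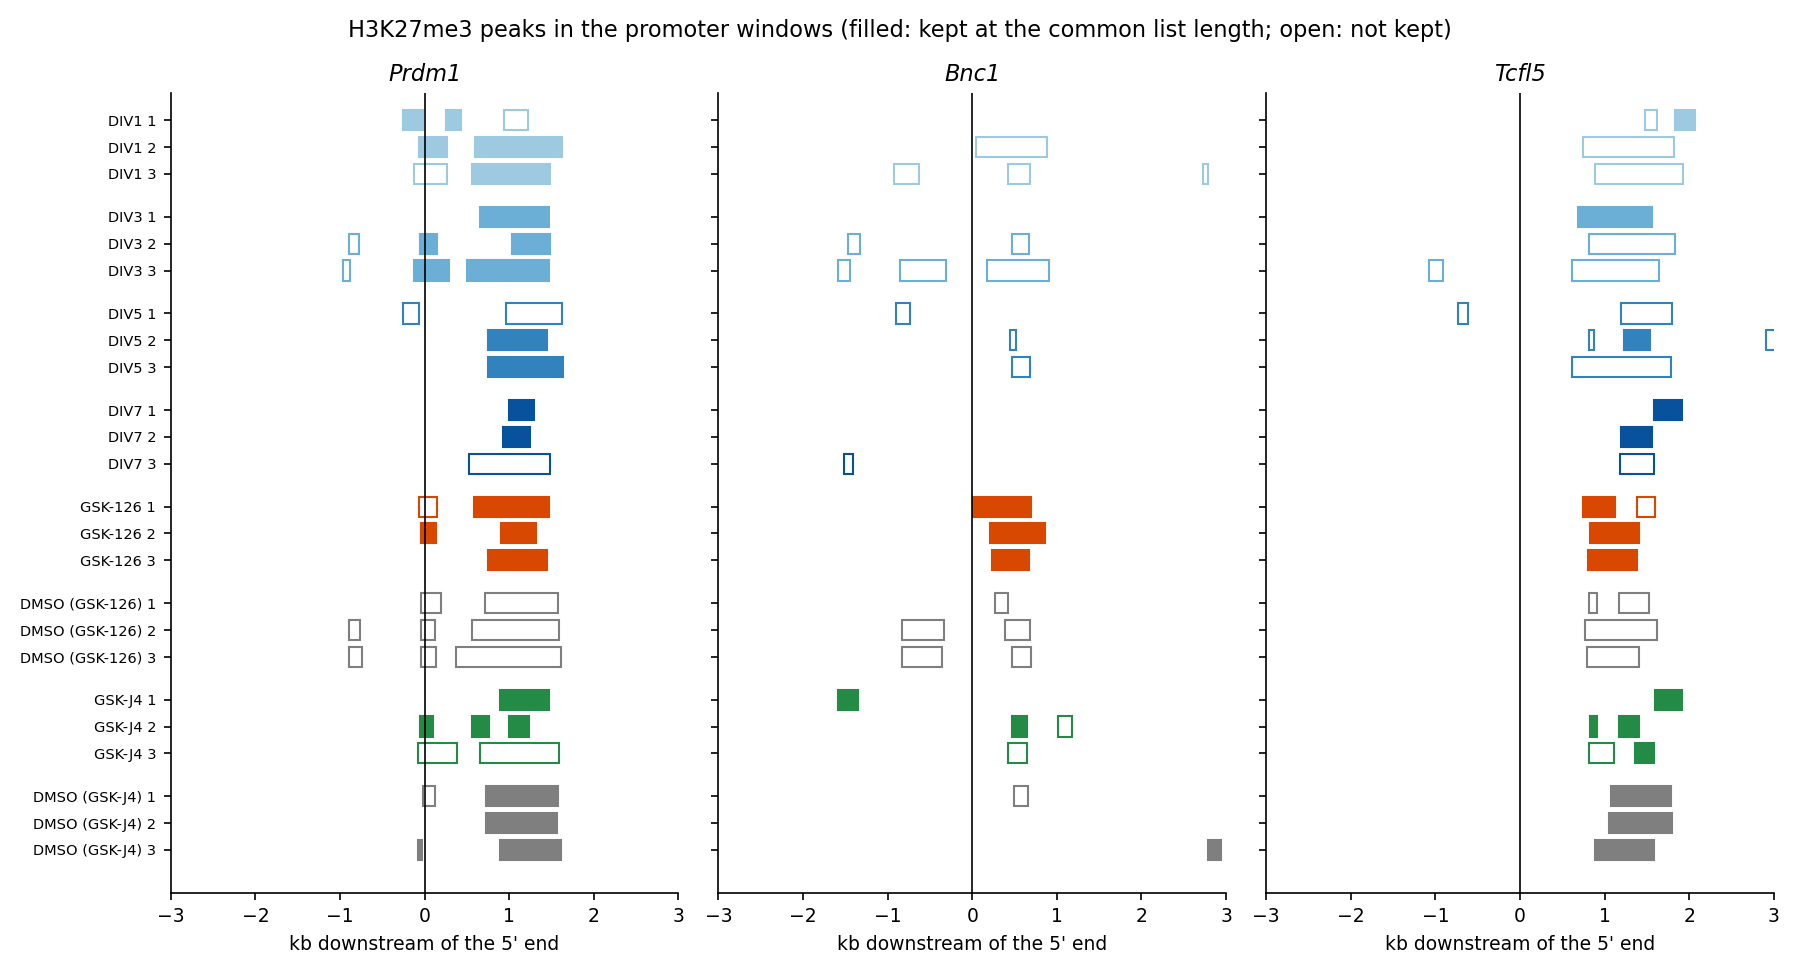
Positions of all peaks in the 3 promoter windows (horizontal axis, kb downstream of the 5' end; vertical line, the 5' end) in each of the 24 libraries (rows, by group and replicate). Filled bars are peaks kept when the lists of an experiment were limited to a common length and open bars are peaks that were not; all 24 rows have a bar near 1 kb in Prdm1, and in the GSK-126 experiment the bars are open in all 3 DMSO rows for each gene.

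At Prdm1 the peaks formed 2 recurrent sites. The intronic one ran from 562 to 1583 bp downstream of the 5' end, counting bases under a peak in at least 6 libraries, and every library had a peak in it. The other ran from 72 bp upstream to 148 bp downstream, across the start of the gene itself, and was occupied in 15 of 24 libraries. It was occupied in 3 of 3 libraries at DIV1, 2 at DIV3, 1 at DIV5 and 0 at DIV7. The DIV5 peak, in replicate 1, had a −log10 p of 4.37 and met only the upstream edge of the site. These counts use all peaks of lists of unequal length. The lists covered 1.33 to 5.19 Mb at DIV1, 1.11 to 6.57 Mb at DIV3 and 1.19 to 2.25 Mb at DIV7. The part of list length in the counts was not tested, so no loss at the gene start is read from them. With GSK-126 this site was occupied in 2 of 3 libraries, against 3 with DMSO, and with GSK-J4 in 2 of 3, against 2 with DMSO. Bnc1 had 1 recurrent site, from 271 to 684 bp downstream, within its first intron. It was occupied in 15 libraries, among them 0 of 3 at DIV7, 3 of 3 with GSK-126 and 3 of 3 with the DMSO of that experiment. Tcfl5 had 1 recurrent site as well, from 771 to 1800 bp downstream, mostly in the first intron and reaching into the next exon. All 24 libraries had a peak in it. None of the windows held the start of another protein-coding gene, and the pseudogene 4833418N17Rik lay in the Bnc1 window on the opposite strand.

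The peaks at the 3 genes were of middling to low enrichment. The peak caller's fold enrichment, the ratio of signal to local background, averaged over the peak bases in the window, was 2.64 to 3.90 at Prdm1, 2.35 to 3.41 at Bnc1 and 2.697 to 3.71 at Tcfl5 across libraries. In each library with a peak this was below the median of that library's own peaks, which was 3.61 to 4.17. The members' strongest peaks had −log10 p of 4.80 to 6.62 at Prdm1, 4.45 to 5.61 at Bnc1 and 5.00 to 6.19 at Tcfl5. Libraries themselves differed widely, with 4740 to 22832 peaks covering 1.07 to 6.57 Mb, so coverage was compared after each list had been shortened to its peaks of highest −log10 p, until its total length matched that of the shortest list in the experiment. The common length so set was 1.40 Mb for GSK-J4, 1.07 Mb for GSK-126 and 1.11 Mb for the time course, and full lists are given beside it. Read depth is unknown.

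The cultures' identity was looked up in the same lists. Of 10 CGN markers, 6 had a promoter peak in any library and 0 had one in at least 12, with Neurod1, a granule neuron transcription factor, the most often marked in 5 libraries. Of 13 markers of glia, microglia and vessels, 5 had a peak in any library and 2 had one in at least 12, namely Cldn5, a claudin of endothelial cells, in 24 and Mbp, a myelin gene, in 14. Of all promoters, 38.0% had a peak in any library and 9.45% had one in at least 12. Most of the 13 markers had no peak at all, and a repressive mark does not measure expression. These lists therefore give no level of the other cells.

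Prdm1 coverage was lower at DIV7 than at the earlier days, but the difference did not pass the test. At the common list length the 3 libraries covered 6.92%, 22.6% and 15.2% of the window at DIV1, 13.7%, 10.9% and 23.1% at DIV3, 0%, 11.6% and 14.8% at DIV5, and 5.08%, 5.48% and 0% at DIV7. All DIV7 values lay under all DIV1 and DIV3 values, while DIV5 overlapped with every day. The means were 14.9 ± 7.87%, 15.9 ± 6.35%, 8.83 ± 7.81% and 3.52 ± 3.06% in the order of days (SD, n = 3 each).

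DIV7 and DIV1 did not overlap, with DIV7 lower, at 5.96% of the 1794 promoters tested over time, and DIV7 and DIV3 likewise at 4.18%. The Prdm1 difference of DIV7 minus DIV1 was −11.42 percentage points (95% confidence interval −22.4 to −0.454, limma adjusted p = 0.367). DIV7 minus DIV3 was −12.39 points (interval −23.4 to −1.43, adjusted p = 0.636), and the slope over the 12 libraries was −2.07 points per day (interval −3.70 to −0.431, adjusted p = 0.245). Of all promoters tested, 1.00% passed for DIV7 against DIV1, 0.502% for DIV7 against DIV3 and 0.0557% for the slope, and none of the 3 members was among them. The intervals are those of single promoters and are not adjusted. Peak names put replicate 1 of each day on another sequencing lane than replicates 2 and 3, and within replicates 2 and 3 the Prdm1 difference of DIV7 minus DIV1 was −16.21 points (adjusted p = 0.244). With lists shortened by fold enrichment instead of −log10 p it was 1.83 points, a change of sign.

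With full lists the Prdm1 mean was again lowest at DIV7, at 18.6 ± 6.08%, 17.01 ± 6.49%, 13.6 ± 1.70% and 8.83 ± 6.14% in the order of days (SD, n = 3 each), with more overlap. Coverage was 11.6%, 22.6% and 21.6% at DIV1, 13.7%, 12.8% and 24.5% at DIV3, 14.2%, 11.6% and 14.8% at DIV5, and 5.08%, 5.48% and 15.9% at DIV7. DIV7 replicate 3 then lay among the earlier libraries, since its intronic peak of 955 bp was as long as theirs but weak, with a −log10 p of 4.80 against 5.22 for the weakest peak kept in that library. The intronic peaks of DIV7 replicates 1 and 2 were 305 and 329 bp long. The full lists of these 2 libraries were also short, at 1.25 and 1.19 Mb, and DIV3 replicate 1, whose list was the shortest at 1.11 Mb, covered 13.7%; the part of list length in the result was not tested.

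Fold enrichment at Prdm1 showed no such order. It was 2.95, 3.27 and 2.96 at DIV1, 3.46, 2.89 and 3.19 at DIV3, 2.64, 3.13 and 3.18 at DIV5 and 3.02, 3.50 and 2.94 at DIV7. The days overlapped throughout, and the difference of DIV7 minus DIV1 was 0.094 (exact permutation p = 0.7, adjusted p = 0.985 over 16 tests). The strength percentile, the rank of the window's strongest peak by −log10 p among all peaks of its own library, was 41.8, 94.6 and 87.0 at DIV1, 70.6, 84.5 and 93.0 at DIV3, 61.2, 73.8 and 86.5 at DIV5, and 66.3, 69.8 and 27.2 at DIV7. Its slope over all days was −3.44 percentiles per day (exact permutation p = 0.209, adjusted p = 0.96).

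At Bnc1 no peak of the time course was strong enough to be kept at the common length, so coverage was 0% in all 12 libraries and was not tested. In the full lists the window was covered over 0%, 13.9% and 10.4% at DIV1, 0%, 5.80% and 23.8% at DIV3, 2.85%, 1.23% and 3.48% at DIV5, and 0%, 0% and 1.65% at DIV7. The DIV5 and DIV7 values were all under 4%, and those of DIV1 and DIV3 ran from 0% to 23.8%. Both DIV1 and DIV3 libraries without a peak were replicate 1. Every time course library without a peak also had a shorter full list than any library with one. These lists covered 1.33 Mb (DIV1 replicate 1), 1.11 Mb (DIV3 replicate 1), and 1.25 and 1.19 Mb (DIV7 replicates 1 and 2). The lists with a peak covered 2.25 to 6.57 Mb, and the part of list length was not tested. With the full lists DIV7 minus DIV1 was −7.56 points (limma adjusted p = 0.434) and the slope −1.50 points per day (adjusted p = 0.271), neither of which passed.

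The sign over time at Tcfl5 depended on which peaks were counted. With full lists coverage was 6.37%, 17.8% and 17.5% at DIV1, 14.7%, 16.9% and 19.9% at DIV3, 12.02%, 7.65% and 19.6% at DIV5 and 5.63%, 6.15% and 6.55% at DIV7. The DIV7 libraries were all under those of DIV3, as at 13.7% of the 3584 promoters tested with full lists, and under those of DIV5, as at 17.6%, and overlapped with DIV1 through its replicate 1. At the common length a kept peak was left in 1 of 3 libraries at DIV1 (4.13%), 1 at DIV3 (14.7%), 1 at DIV5 (5.08%) and 2 at DIV7 (5.63% and 6.15%), and the others were at 0%. DIV7 minus DIV1 was 2.55 points at the common length (interval −5.82 to 10.9, adjusted p = 0.828) and −7.78 points with full lists (adjusted p = 0.259), so no direction is given for Tcfl5.

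Fold enrichment at Tcfl5 was 2.84, 2.84 and 2.697 at DIV1, 3.24, 2.72 and 2.82 at DIV3, 2.701, 3.18 and 2.99 at DIV5, and 2.99, 3.63 and 3.06 at DIV7. All DIV7 values exceeded all DIV1 values, as at 33.4% of the 554 promoters with a peak in all 6 libraries, by a mean of 0.440 (exact permutation p = 0.1, the smallest that 3 against 3 libraries allow, adjusted p = 0.8). The slope was 0.068 per day (exact permutation p = 0.0475, adjusted p = 0.760 over 16 tests), which did not pass. The median fold enrichment of all peaks was 3.87, 4.04 and 3.88 in the DIV7 libraries, against 3.90, 3.66 and 3.69 in the DIV1 libraries, and its part in the difference was not tested.

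**Figure D2:**
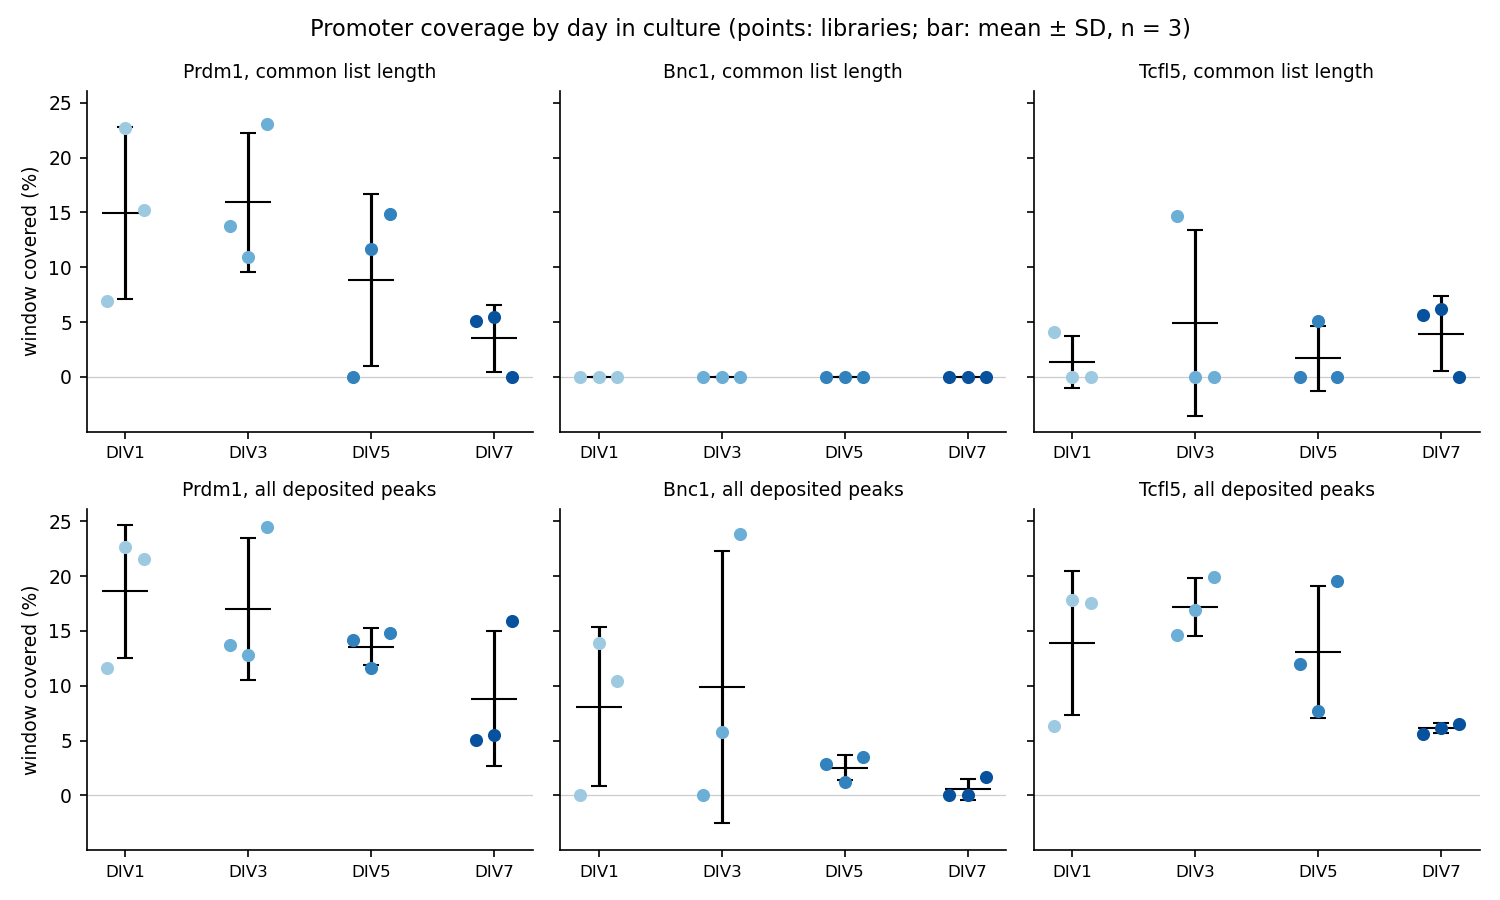
Percentage of each promoter window covered by peaks (vertical axis) at DIV1, DIV3, DIV5 and DIV7 (horizontal axis), at the common list length (upper row) and with all deposited peaks (lower row). Points are libraries, marks and bars are mean ± SD (n = 3); Prdm1 at DIV7 (0% to 5.48%) lies below DIV1 (6.92% to 22.6%) in the upper row, and Bnc1 is at 0% in all 12 libraries there.

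The GSK-126 comparison chose these genes, so its values are given as a description without a test. At the common length all 3 promoters were covered in every GSK-126 library and in no DMSO library. Prdm1 had 14.9%, 10.2% and 11.7% with GSK-126, against 0%, 0% and 0% with DMSO. Bnc1 had 11.4%, 10.9% and 7.32% with GSK-126, against 0% in each DMSO library. Tcfl5 had 6.18%, 9.62% and 9.70% with GSK-126, against 0% in each DMSO library. The differences of the means were 12.26, 9.87 and 8.50 points. Over the experiment 2.45% of 939 promoters tested (23) were called higher with GSK-126, and 41 were called lower. The groups did not overlap, with GSK-126 higher, at 12.4%. The members were among the 939 only through their GSK-126 coverage, so no lower value was possible for them.

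The full lists gave another picture of the same windows. Every DMSO library had a peak in all 3 promoters. Prdm1 was covered over 18.3%, 10.2% and 11.7% with GSK-126, against 18.3%, 22.2% and 26.4% with DMSO, a difference of −8.88 points that is opposite in sign to that at the common length. Bnc1 was covered over 11.4%, 10.9% and 7.32% with GSK-126, against 2.48%, 13.2% and 11.8% with DMSO. Tcfl5 was covered over 9.77%, 9.62% and 9.70% with GSK-126, against 7.65%, 14.1% and 10.2% with DMSO. The differences at Bnc1 and Tcfl5 were 0.711 and −0.950 points. The groups overlapped at all 3 genes, at Prdm1 only through replicate 1 of each group (18.32% with GSK-126, 18.27% with DMSO). The full lists covered 2.00, 1.07 and 1.63 Mb in the GSK-126 libraries and 3.29, 4.23 and 3.55 Mb in the DMSO libraries. The paper reports that H3K27me3 fell with the dose of GSK-126 on western blots, and that most differential peaks were reduced. A common length takes out any such difference in total, so coverage there cannot by itself show a gain of the mark. The part of the drug in the list lengths was not tested.

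Which peaks were kept at the common length depended on their strength and on the limit of their library, which differed between the groups. The GSK-126 libraries kept 4059 of 8723, 5401 of 5401 and 4758 of 7839 peaks. The DMSO libraries kept 3423 of 13255, 3301 of 17142 and 3454 of 14475. The strongest Prdm1 peak had a −log10 p of 6.37, 6.10 and 5.72 with GSK-126, where the weakest kept peak of the library had 5.22, 4.63 and 5.18. With DMSO it had 5.27, 5.35 and 5.34, just under the weakest kept peaks at 5.39, 5.44 and 5.41. At Tcfl5 the strongest peak had 5.47, 5.78 and 6.19 with GSK-126, and 5.04, 5.37 and 5.34 with DMSO. At Bnc1 it had 5.40, 5.61 and 5.52 with GSK-126, and 4.45, 4.87 and 4.91 with DMSO, so Bnc1 lay farther from the limit in DMSO than the other 2 genes.

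Ranked among the peaks of their own library, the members were not apart between the groups. The strength percentile of Prdm1 was 88.1, 68.9 and 71.2 with GSK-126, against 68.2, 77.7 and 73.3 with DMSO. That of Tcfl5 was 67.5, 56.8 and 84.0 with GSK-126, against 54.8, 78.2 and 73.1 with DMSO. That of Bnc1 was 64.3, 47.6 and 61.4 with GSK-126, against 7.89, 51.9 and 48.5 with DMSO. The groups overlapped at each gene.

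Fold enrichment was higher with GSK-126 at Prdm1 and Bnc1 without overlap. It was read from the same 6 libraries on which the members had been selected, so it too is a description. At Prdm1 it was 3.62, 3.90 and 3.73 with GSK-126, against 3.06, 3.08 and 3.07 with DMSO. At Bnc1 it was 3.04, 3.38 and 3.41 with GSK-126, against 2.63, 2.71 and 2.77 with DMSO. At Tcfl5 it was 2.99, 3.56 and 3.67 with GSK-126, against 2.96, 3.11 and 3.25 with DMSO, and these overlapped. Such a separation, with GSK-126 higher, was seen at 31.9% of the 733 promoters that had a peak in all 6 libraries, where the median difference was 0.298, against 0.682 at Prdm1, 0.574 at Bnc1 and 0.298 at Tcfl5.

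The median peak of the library was itself more enriched with GSK-126, at 3.94, 4.17 and 4.15, against 3.79, 3.76 and 3.79 with DMSO. Divided by this median, fold enrichment at Prdm1 was 0.920, 0.935 and 0.899 with GSK-126, against 0.806, 0.818 and 0.810 with DMSO. At Bnc1 the ratio was 0.773, 0.811 and 0.821 with GSK-126, against 0.693, 0.720 and 0.732 with DMSO. At Tcfl5 it was 0.759, 0.853 and 0.884 with GSK-126, against 0.781, 0.828 and 0.857 with DMSO. Prdm1 and Bnc1 stayed apart on this scale and Tcfl5 did not. Of the 733 promoters, 13.6% were apart with GSK-126 higher. The members had been selected on these libraries and the 733 had not, so the share is no test of the members.

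**Figure D3:**
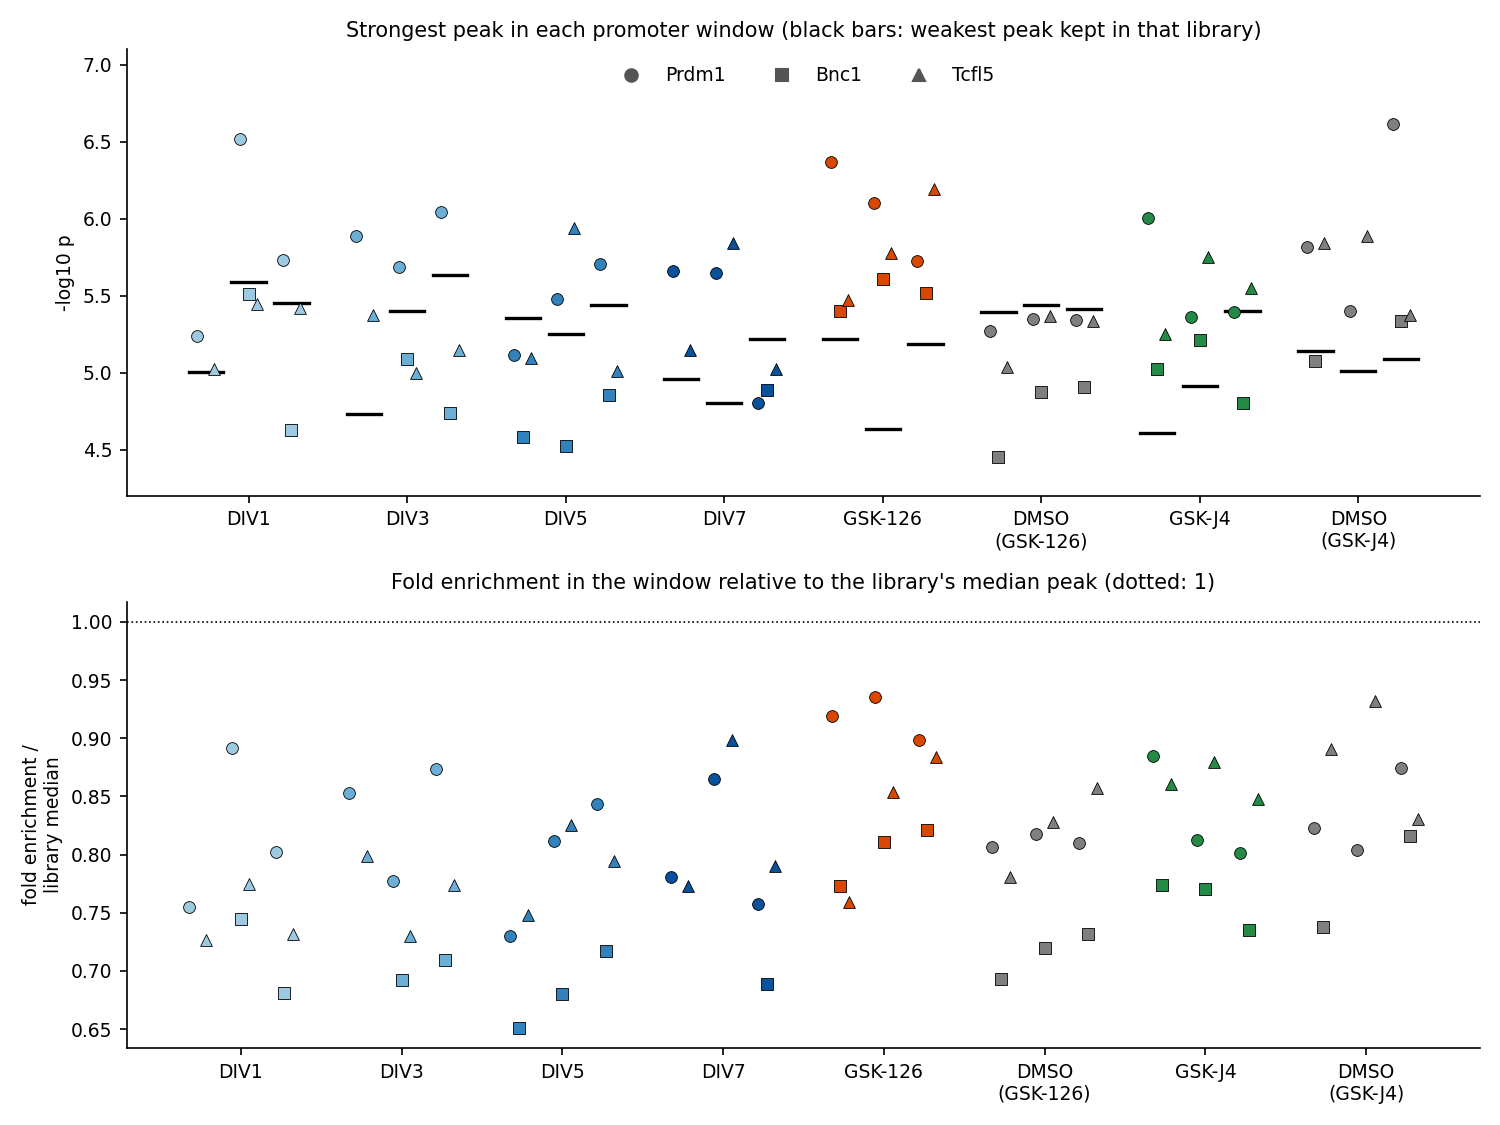
Upper panel: −log10 p of the strongest peak in each promoter window (vertical axis; circles Prdm1, squares Bnc1, triangles Tcfl5) in each library, by group (horizontal axis), with black bars for the weakest peak kept in that library at the common length. Lower panel: fold enrichment in the window divided by the library's median, with 1 dotted; all points lie below 1, and in the DMSO group of GSK-126 all symbols lie below the bars (5.39 to 5.44) while in the GSK-126 group all lie above them (4.63 to 5.22).

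GSK-J4 was set against its own DMSO libraries. The paper saw no change of H3K27me3 with this drug, by western blot or by CUT&RUN, and judged its usable dose range too small for neurons. Tcfl5 coverage at the common length was 5.37%, 5.30% and 3.70% with GSK-J4, against 11.9%, 12.5% and 11.7% with DMSO. These groups did not overlap, as was the case, with GSK-J4 lower, at 4.86% of the 1524 promoters tested. The difference was −7.26 points (interval −12.2 to −2.36, limma adjusted p = 0.975), which did not pass across all promoters, where 0% were called. At an unadjusted p under 0.05 limma had 33 promoters higher and 40 lower. With full lists Tcfl5 was covered over 5.37%, 5.30% and 8.70% with GSK-J4, against 11.9%, 12.5% and 11.7% with DMSO, again without overlap, which with GSK-J4 lower was seen at 2.46% of the 2034 promoters tested with full lists. Fold enrichment overlapped, at 3.50, 3.55 and 3.26 with GSK-J4, against 3.52, 3.71 and 3.33 with DMSO (difference −0.081, exact permutation p = 0.6, adjusted p = 0.985). In the window of 1 kb on each side, which leaves out most of the intronic site, the difference in coverage was −0.55 points, and with lists shortened by fold enrichment it was −0.606 points.

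Prdm1 coverage was 9.67%, 9.65% and 0% with GSK-J4, against 14.1%, 13.9% and 12.8% with DMSO, a difference of −7.17 points (interval −14.2 to −0.149, limma adjusted p = 0.975) that turned to 2.96 points with lists shortened by fold enrichment. GSK-J4 replicate 3 was at 0% only through the common length: its strongest Prdm1 peak had a −log10 p of 5.40, at the limit of 5.40, and the full list covered 23.2% of the window there. With full lists the values were 9.67%, 9.65% and 23.2% with GSK-J4, against 16.6%, 13.9% and 12.8% with DMSO, and the groups overlapped. Fold enrichment was 3.60, 3.28 and 3.09 with GSK-J4, against 3.25, 3.20 and 3.50 with DMSO (difference 0.006, exact permutation p = 1).

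Bnc1 was little covered in this experiment. At the common length it had 4%, 3.10% and 0% with GSK-J4, against 0%, 0% and 2.50% with DMSO, a difference of 1.53 points (interval −3.80 to 6.87, adjusted p = 0.975). The full lists gave 4%, 5.95% and 3.68% with GSK-J4, against 2.63%, 0% and 2.50% with DMSO. All GSK-J4 values were the higher ones there, as at 3.59% of the 2034 promoters, but the peak of DMSO replicate 3 lay more than 2.5 kb downstream of the 5' end and that of GSK-J4 replicate 1 more than 1 kb upstream, outside the recurrent site. Fold enrichment, in the libraries with a peak, was 3.15, 3.11 and 2.83 with GSK-J4, against 2.91 and 3.27 with DMSO.

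**Figure D4:**
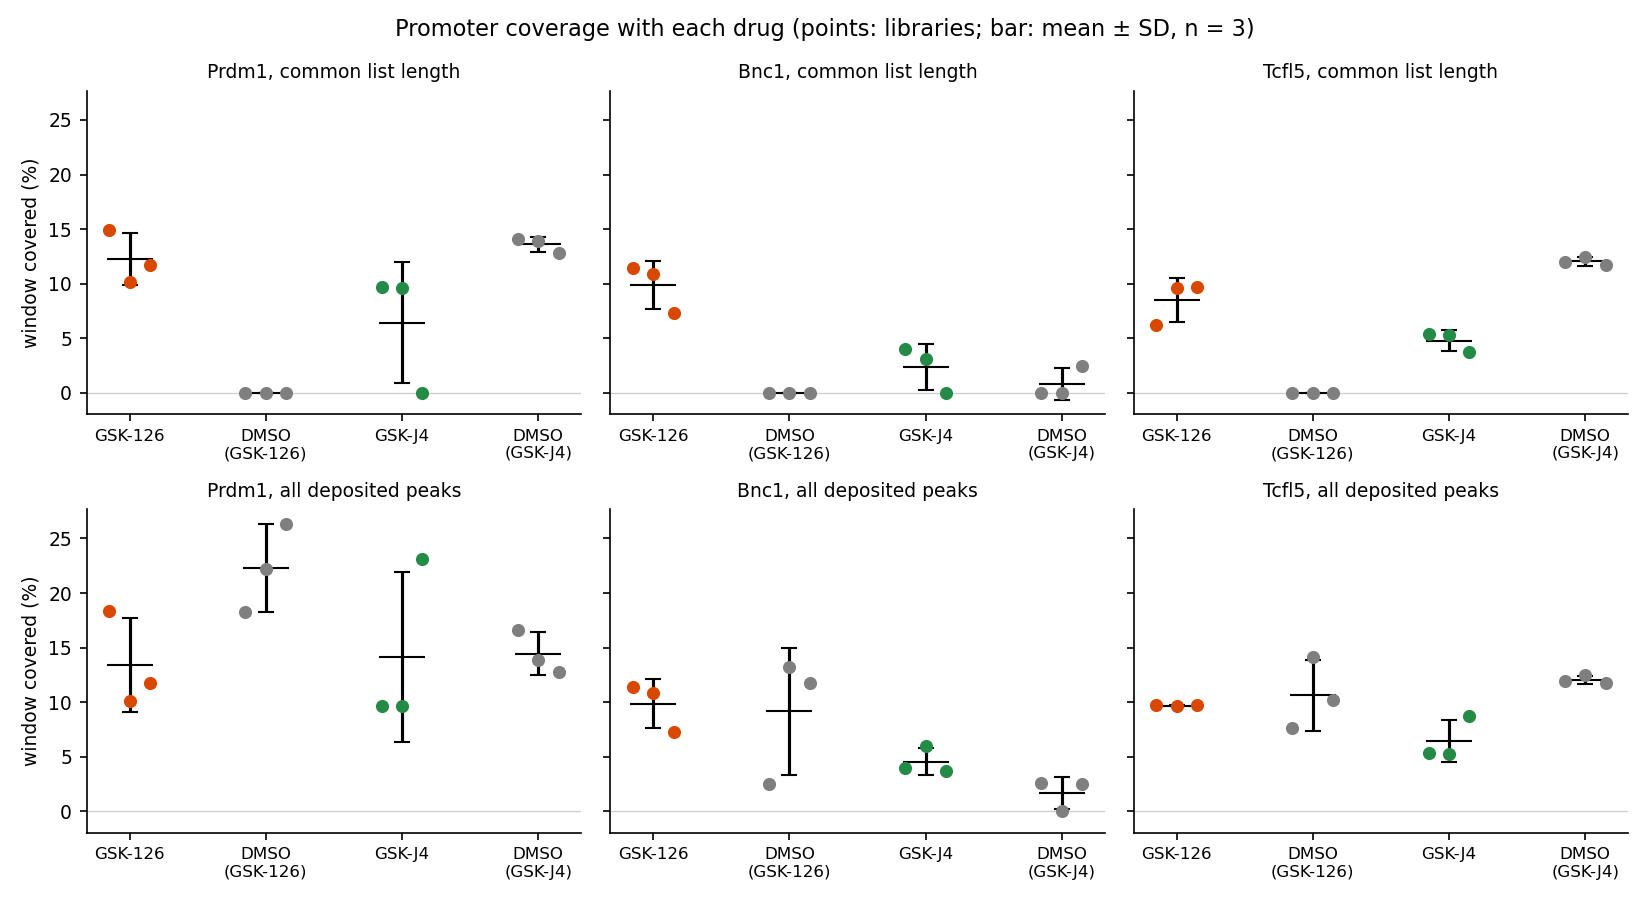
Percentage of each promoter window covered by peaks (vertical axis) with GSK-126 or its DMSO and with GSK-J4 or its DMSO (horizontal axis), at the common list length (upper row) and with all deposited peaks (lower row). Points are libraries, marks and bars are mean ± SD (n = 3); all DMSO points of the GSK-126 experiment are at 0% in the upper row and between 2.48% and 26.4% in the lower row.

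The outermost 5' end of Prdm1, at position 44528501 of chromosome 10, is that of 1 of its annotated transcripts. An inner start, at 44458748, lies 69.8 kb farther downstream, and the window around it was added after the data were seen. It too had a peak in 24 of 24 libraries, recurring from 1314 to 2161 bp downstream of the inner start. At the common length coverage there was 0%, 2.62% and 8.02% with GSK-126, against 0%, 5.57% and 8.70% with DMSO, so the 2 starts of the gene differed in what the GSK-126 lists kept. Over time it was 0.833%, 0% and 0% at DIV1, 4.73%, 0% and 5.68% at DIV3, 0%, 6.93% and 3.12% at DIV5, and 10.4%, 4.15% and 7.65% at DIV7. At this length all DIV7 values but 1 were above every DIV1 and DIV3 value, the opposite order to that at the outer start. The full lists did not keep this order. They covered 0.833%, 12.08% and 7.53% at DIV1, and 4.73%, 17.55% and 16.7% at DIV3. The DIV7 values were the same as at the common length and overlapped with both days. Their mean of 7.42% was below the DIV3 mean of 12.99%, as at the outer start, and above the DIV1 mean of 6.82%. In the GSK-126 experiment the full lists covered 5.47%, 2.62% and 8.02% with GSK-126, against 6.93%, 11.92% and 10.97% with DMSO. The mean was lower with GSK-126, as at the outer start with full lists, and the groups overlapped. With GSK-J4 coverage at the inner start was 7.75%, 9.02% and 15.9%, against 14.2%, 8.62% and 4.08% with DMSO, the same at both list lengths.

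Related genes were looked up in lists of gene families and of the cell types in which the members act. Of 17 genes of the PRDM family, which encode zinc finger regulators, 8 had a promoter peak in any of the 24 libraries and 2 had one in at least 12. Of all promoters, 38.0% had a peak in any library and 9.45% in at least 12, and these shares serve for each list below. The most often marked were Prdm1 in 24 libraries, Prdm14, a pluripotency and germ cell factor, in 17, Mecom in 8 and Prdm6 in 3. Only Prdm1 of this family was covered often enough at the common length to be tested. Bnc2, the paralog of Bnc1, had a peak in 7 libraries, against 19 for Bnc1.

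Of 22 transcription factors and regulators of germ cells, 14 had a peak in any library and 6 had one in at least 12, among them Tcfl5 in 24, Dmrt1, a testis determination factor, in 18, Figla, a regulator of oocyte genes, in 18 and Prdm14 in 17. At the common length 4 of them could be tested over time, with a median DIV7 minus DIV1 of 1.74 points, against 0.283 over all promoters tested, and 5 with GSK-J4. None of these passed. With GSK-126 only Tcfl5 was covered in enough libraries, and its values there are the description given above. Of 16 regulators of B cells and plasma cells, 6 had a peak in any library and 4 had one in at least 12, led by Ikzf1, a lymphoid zinc finger factor, in 24, Id3 in 22, Irf4, which acts with Prdm1 in plasma cells, in 19 and Ikzf3 in 15. The 6 of 16 with any peak was near the 38.0% of all promoters. In each comparison 2 of the 16 were tested and none passed. Irf4 coverage with GSK-126 minus DMSO was 10.76 points at the common length (limma adjusted p = 0.104) and −10.07 points with full lists (adjusted p = 0.201). At the common length Irf4 was at 0% in each DMSO library. It was tested there only through its GSK-126 coverage, so no lower value was possible and no direction is given for it.

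Of 13 epidermal transcription factors, 10 had a peak in any library and 5 had one in at least 12, among them Grhl2, a grainyhead factor of epithelia, in 23, Klf4 in 20 and Grhl1 in 14. Over time 5 were tested and none passed, with a median DIV7 minus DIV1 of −0.083 points. With GSK-126, where 2 were tested, 1 passed at the common length, Grhl2, with 12.8%, 13.7% and 8.28% with GSK-126, against 0% in each DMSO library, a difference of 11.59 points (limma adjusted p = 0.0289). It was tested only through its GSK-126 coverage, so no lower value was possible. With full lists Grhl2 was covered over 14.9%, 13.7% and 11.6% with GSK-126, against 16.03%, 18.1% and 14.8% with DMSO, a difference of −2.91 points (adjusted p = 0.249), so no direction is given for it. The call was lost without DMSO replicate 1, 2 or 3 (adjusted p = 0.0885, 0.0843 and 0.0808) and with the replicate number as a block (adjusted p = 0.154), and without any 1 GSK-126 library Grhl2 was covered in too few libraries to be tested. With GSK-J4 3 were tested and none passed.

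Coverage at the common length was also set against 1319 other promoters that were covered in at least 8 libraries, across all 24 libraries, as a description. The libraries share their experiments and their list lengths, and a correlation here carries both. Most like Prdm1 were Irak3, an inhibitor of innate immune signalling, and Tmbim4, which had the same Pearson r of 0.778, and Oxct2a (r = 0.699), a ketone body enzyme of the testis. Irak3 and Tmbim4 were each covered in 15 libraries. The search did not leave out promoters whose windows overlap one another, so they may not be separate examples. Most like Bnc1 were Bmp8b, a bone morphogenetic protein (r = 0.855), Tesc (r = 0.854) and Npy, the neuropeptide Y gene (r = 0.841). Bnc1 itself was covered in only 6 of the libraries, 3 of them those of GSK-126. Most like Tcfl5 were Loxl2, a lysyl oxidase (r = 0.757), Nfe2l3, a basic leucine zipper factor (r = 0.730), and Acvrl1, a receptor of the transforming growth factor family (r = 0.716).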

How the data were processed

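Peak lists of 24 H3K27me3 CUT&RUN libraries were used, 1 list per library. The authors trimmed reads with Trimmomatic 0.38, aligned them to mm10 (STAR 2.7.2b) and called peaks in the broad mode of MACS2 2.1; the control of the calls is not given in the sources used here. The deposited columns used were the fold enrichment, a ratio over local background, and the −log10 p-value and −log10 q-value of each peak. The deposited score, derived from the −log10 q, was not used. Read counts, on which the authors ran DESeq2 1.36.0, were not used here. Promoters came from GENCODE vM21 (GRCm38, the sequence of mm10). Differences in coverage were fitted in R 4.3.3 by limma 3.58.1 (lmFit, robust eBayes, two-sided) for promoters covered in at least 3 libraries of the experiment, with Benjamini-Hochberg adjustment over all of them at 0.05. A single fit held the 12 libraries of the time course. Fold enrichment and strength percentile were tested by two-sided exact permutation over libraries with a peak, adjusted over 16 tests; 3 against 3 libraries allow no p under 0.1. Simulated data were used to test the limma fits. Python 3.11.15, numpy 2.4.6, pandas 2.3.3, pysam 0.24.0 and matplotlib 3.10.9 did the rest. The members, the gene lists and the tests were chosen with earlier results of these data known. The text names the members, for each the 3 promoters most alike among those covered in at least 8 libraries (without gene models named Gm or Rik), and up to 4 genes of each list by the number of libraries with a peak. Values of 1 gene that this rule named are not reported here. Where replicates share a number, nothing in the labels says that they share a culture. Alternatives were all deposited peaks, lists shortened by fold enrichment, a −log10 q of at least 2, promoters covered in at least 1 library, windows of 1 kb on each side, the replicate number as a block, the highest fold enrichment in a window, and leaving out each library. The inner start of Prdm1 and the use of replicates 2 and 3 of every day were added after the data were seen.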

Additional observations from a re-analysis of the deposited data

How the results depend on the processing

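Over time and with GSK-J4, no member passed the adjusted threshold of 0.05, nor did it under any alternative run; the members' GSK-126 values are a description. With all deposited peaks GSK-126 minus DMSO was −8.88 points at Prdm1, −0.950 at Tcfl5 and 0.711 at Bnc1; DIV7 minus DIV1 was −7.78 at Tcfl5 and −7.56 at Bnc1, DIV7 minus DIV3 −9.33 at Bnc1, and the slopes −1.37 and −1.50 points per day. With lists shortened by fold enrichment GSK-126 minus DMSO was 3.38 at Prdm1, 3.63 at Bnc1 and 3.21 at Tcfl5, and Prdm1 had 1.83 (DIV7 minus DIV1), −2.75 (DIV7 minus DIV3) and 2.96 (GSK-J4 minus DMSO). With a −log10 q of at least 2 GSK-126 minus DMSO was 4.97, 0 and 3.23 at Prdm1, Bnc1 and Tcfl5, Prdm1 had 0 for both differences over time and −0.267 with GSK-J4, and Tcfl5 had 0 with GSK-J4. In windows of 1 kb on each side GSK-126 minus DMSO was 16.07, 29.62 and 10.43 points of the smaller window and Tcfl5 had −0.55 with GSK-J4. At the inner start of Prdm1 the values were 7.14 (DIV7 minus DIV1), 3.94 (DIV7 minus DIV3), 1.06 per day, −1.21 (GSK-126) and 1.93 (GSK-J4). The cause was not tested.

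The highest fold enrichment in the window gave slopes of −0.00174 at Bnc1 and −0.00213 at Prdm1 and −0.0356 with GSK-J4 at Prdm1, and the 1 kb window a Bnc1 slope of −0.0148, all near 0. Leaving out 1 library turned the sign of 10 differences that had not passed. Fold enrichment then ranged from −0.120 to 0.0402 (Bnc1, GSK-J4), −0.0149 to 0.0184 (Bnc1, slope), −0.0777 to 0.202 (Prdm1, DIV7 minus DIV1), −0.133 to 0.124 (Prdm1, GSK-J4), −0.0213 to 0.0163 (Prdm1, slope) and −0.177 to 0.0157 (Tcfl5, GSK-J4). The Tcfl5 strength percentile ranged from −27.1 to 1.36 (DIV7 minus DIV1), −16.8 to 2.22 (GSK-J4) and −3.06 to 1.02 (slope), and Tcfl5 coverage from −3.41 to 3.93 (DIV7 minus DIV3).

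Counts of promoters called, in either direction, moved most. They were 18, 9 and 1 over time (DIV7 minus DIV1, DIV7 minus DIV3, slope), 64 with GSK-126 and 0 with GSK-J4. With all deposited peaks they were 40, 0, 36, 641 and 0 in this order. Lists shortened by fold enrichment gave 5, 1 and 0 over time, and a −log10 q of at least 2 gave 4, 1, 2, 4 and 1, with few promoters left to test. The slope had 3 calls in the 1 kb window and 0 with promoters covered in at least 1 library. Replicates 2 and 3 of every day gave 4 and 0 for the differences over time. Leaving out 1 library gave 0 to 33, 0 to 11, 0 to 3 and 0 to 22 calls for DIV7 minus DIV1, DIV7 minus DIV3, the slope and GSK-126. Same-numbered replicates deviated together little, with a mean correlation of 0.014 over time, 0.028 with GSK-126 and 0.031 with GSK-J4. With the replicate number as a block 4 promoters were called for DIV7 minus DIV3 and 0 with GSK-126, and no call of a member over time or with GSK-J4 changed. Read depth is unknown, so what it limits could not be computed.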
